A study of Mus musculus with 12 samples.

Results

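The levels of 10 transcripts that ERK signaling raises and that act back on the same pathway were followed in sorted mouse glioma cells: the dual-specificity phosphatases Dusp4, Dusp5 and Dusp6, the Sprouty genes Spry1, Spry2 and Spry4, the Sprouty-related genes Spred1 and Spred2, and the ETS factors Etv4 and Etv5. They were chosen by gene name, as a list of known ERK feedback genes, with earlier results of these data known. All 10 were among the 19938 genes measured. ZsGreen-tagged tumor cells were sorted from the brains of 12 FVB mice, with 1 array per mouse, 6 from pEGFR-Hi tumors and 6 from pEGFR-Lo tumors. The lines behind both groups came from 1 parental pool of Ink4a/Arf-null neural progenitor cells of the subventricular zone transduced with human EGFRvIII, a truncated EGFR that signals without ligand. They are named for high and low EGFRvIII activity, were passed through mice as tumors and grown as spheres, and were then injected intracranially, in 2 µl at 200000 cells per µl. The brains were dissociated enzymatically around the median survival of each line's own mice, myelin and red cells were removed on Percoll, and dead cells were excluded with DAPI. Each group is therefore 1 line taken at its own time after injection, so EGFRvIII activity, line and time cannot be told apart, and p-values reflect spread between mice and not between lines. The arrays measured RNA only, so the activity of ERK itself is not in these data.

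EGFR passes its signal through Ras, Raf and MEK to the kinase ERK. ERK-dependent transcription then builds brakes on this path: dual-specificity phosphatases remove the activating phosphates from ERK, and Sprouty and Spred proteins act further up, at receptor adaptors, Ras and Raf. The ETS factors of the PEA3 group are also raised by ERK, which inactivates Capicua, a repressor of Etv4, Etv5 and several of the brakes, so the levels of these transcripts are widely used as a readout of pathway output in glial progenitors and gliomas.

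The values are log2 expression after RMA, the normalization applied by the authors, and each gene is represented by its brightest probe set. A gene was called higher or lower with limma at a Benjamini-Hochberg adjusted p under 0.01 over all 19938 genes and a difference of at least 2-fold. Every difference is given as pEGFR-Hi minus pEGFR-Lo on the log2 scale. At these limits 3.99% of all genes were called higher in pEGFR-Hi and 5.06% lower. All 10 feedback genes lay above the background level of 4.10, below which 95% of olfactory receptor genes had their means. The tumor cells carried the progenitor transcripts (7 of 7 markers above background, list means per array 9.74 to 10.06 in pEGFR-Hi and 10.04 to 10.20 in pEGFR-Lo). Those of microglia and macrophages averaged 3.67 to 3.91 in pEGFR-Hi and 3.59 to 4.13 in pEGFR-Lo. Of these 8, Csf1r, Aif1, Ptprc and Itgam lay below background, and Cx3cr1 (5.28 in pEGFR-Hi and 5.13 in pEGFR-Lo), Tyrobp, C1qa and C1qb above it. Those of endothelial cells averaged 3.71 to 4.28 in pEGFR-Hi and 3.71 to 3.93 in pEGFR-Lo, with 2 of 6 above background, Cldn5 and Flt1. Flt1 was not called but was higher in pEGFR-Hi without overlap (5.04 against 4.21, adjusted p = 8.84e-05 from limma). Glial and mural markers moved with the groups: of 6 astrocyte markers 1 was called higher in pEGFR-Hi (Gfap) and 2 lower (Slc1a3 and Gja1), of 5 pericyte markers 1 higher (Anpep) and 1 lower (Rgs5), and of the progenitor markers 1 lower (Fabp7). Interferon-response genes averaged 8.33, 8.47 and 8.90 in the odd-numbered pEGFR-Hi arrays and 7.98, 7.91 and 7.78 in the even-numbered ones. They averaged 6.40 to 6.90 in 4 pEGFR-Lo arrays, but only 5.28 and 5.22 in pEGFR-Lo replicates 3 and 6. The part of these markers and interferon genes in the differences of the feedback genes was not tested, and values without these 2 arrays are given where they end a call. In sorted bulk RNA, less of a transcript per cell and fewer cells that carry it cannot be told apart.

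None of the feedback genes was called higher in pEGFR-Hi, and 2 were called lower, Dusp4 and Spry4. The other 8 did not pass. With limma at an adjusted p under 0.05 alone, whatever the fold, 5 of the 10 were lower in pEGFR-Hi (Dusp4, Dusp6, Spry4, Spred1 and Etv5) and 0 were higher, where 16.6% of all genes were lower and 19.4% higher. Also without adjustment, at p under 0.05, the only member on the higher side was Etv4, with 5 on the lower side, where 23% of all genes were higher and 19.8% lower, and SAM called 0 higher and 2 lower. In 4 members, Dusp4, Spry4, Spred1 and Etv5, the 6 pEGFR-Hi mice lay below all 6 pEGFR-Lo mice, while 23.3% of all genes had groups that did not overlap in either direction. The differences of the 10 ranged from -1.20 to 0.38, with a median of -0.18 against a median of 0.01 over all genes. Over all genes the median absolute difference was 0.178. With 10 genes chosen by name these counts are a description, and no test was made over the list.

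**Figure D1:**
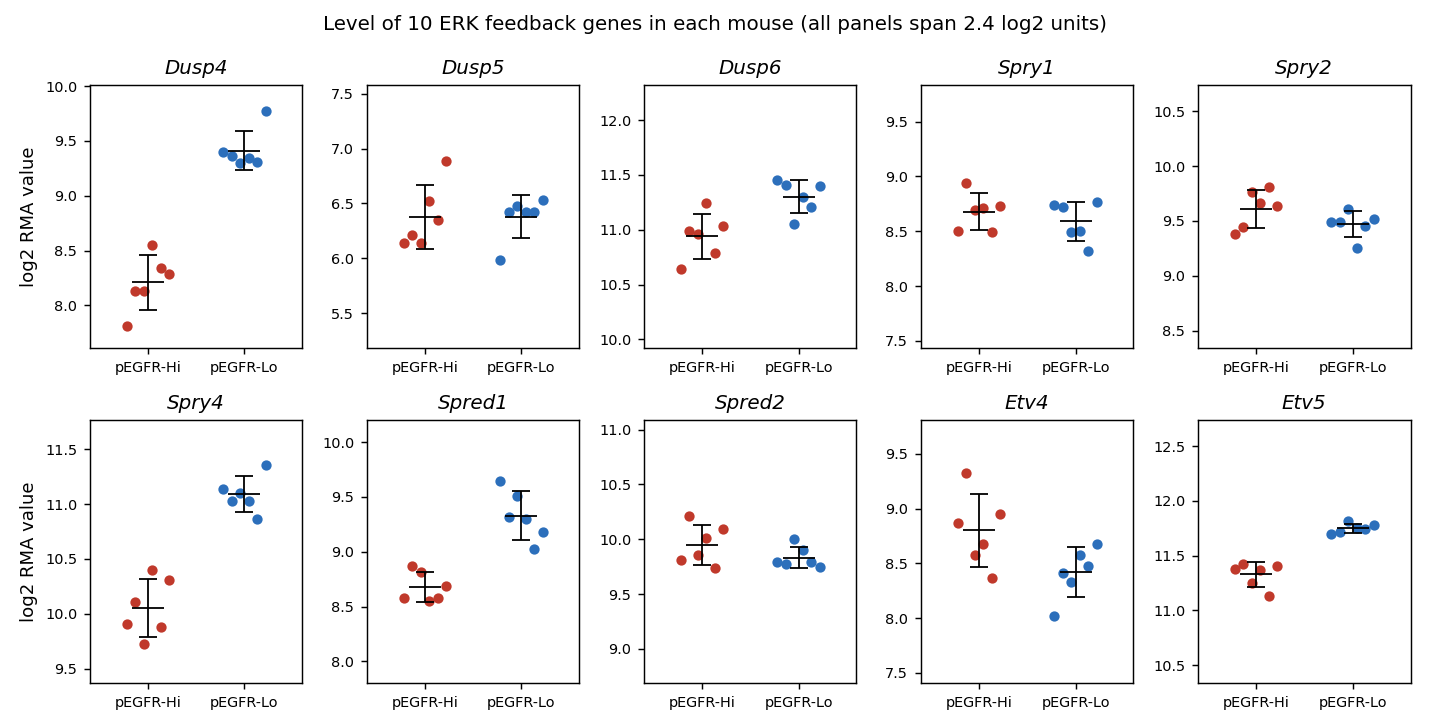
Log2 RMA value (y axis) of the 10 ERK feedback genes in each pEGFR-Hi and pEGFR-Lo mouse (1 point per mouse, 6 per group); bars give the mean and SD, and all panels have the same span on the y axis. The pEGFR-Hi points of Dusp4, Spry4, Spred1 and Etv5 all lie below the pEGFR-Lo points, and those of the other 6 genes overlap.

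Of the phosphatases, Dusp4 was lower in pEGFR-Hi, Dusp6 was lower at the limit of 0.05 alone, and Dusp5 was at the same mean in both. Dusp4 encodes a nuclear phosphatase that acts on ERK and, in other settings, on JNK and p38. Its level was 7.81, 8.13, 8.13, 8.55, 8.34 and 8.29 in the 6 pEGFR-Hi mice and 9.40, 9.36, 9.30, 9.34, 9.31 and 9.77 in the 6 pEGFR-Lo mice. The highest pEGFR-Hi mouse stood 0.75 below the lowest pEGFR-Lo mouse, and 5 of the pEGFR-Lo mice were within a narrow band with replicate 6 above it. The means were 8.21 ± 0.249 in pEGFR-Hi and 9.41 ± 0.177 in pEGFR-Lo (SD over 6 mice, here and in all means that follow), a difference of -1.20 (SE 0.117, 95% confidence interval -1.45 to -0.95), or 2.31-fold lower in pEGFR-Hi, with an adjusted p of 5.44e-07 from limma. Dusp4 was the member with the widest difference, and the call was made under all 22 alternatives, with differences of -1.27 to -1.12.

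Dusp6 encodes the cytoplasmic phosphatase specific for ERK, and its promoter is a known target of ETS factors. Its level ran from 10.64 to 11.24 with a median of 10.98 in pEGFR-Hi and from 11.05 to 11.45 with a median of 11.35 in pEGFR-Lo. Of the pEGFR-Hi mice, 5 lay below all pEGFR-Lo mice, and replicate 4, at 11.24, lay above pEGFR-Lo replicates 3 (11.05) and 5 (11.21). The mean was 10.94 ± 0.206 in pEGFR-Hi and 11.30 ± 0.151 in pEGFR-Lo, a difference of -0.36 (SE 0.103), or 1.28-fold lower. The adjusted p from limma was 0.0114 and lay between 0.00348 and 0.0467 over the alternatives, so Dusp6 passed the limit of 0.05 under each that gives one and was 2-fold lower under none. Dusp5, the inducible nuclear phosphatase of ERK, ran from 6.14 to 6.89 with a median of 6.28 in pEGFR-Hi and from 5.98 to 6.53 with a median of 6.42 in pEGFR-Lo. The highest value was in pEGFR-Hi replicate 6 and the lowest in pEGFR-Lo replicate 1, and the ranges overlapped over most of their span. Both means were 6.38 (SD 0.292 over the pEGFR-Hi mice and 0.198 over the pEGFR-Lo mice), and the 95% confidence interval of the difference was -0.28 to 0.28.

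The windows before the start sites of Dusp6, Spred1 and Dusp5 are shown as examples, picked after the differences were seen. Dusp6 and Spred1 were lower in pEGFR-Hi at the limit of 0.05, and Dusp5 was not. All of these windows hold ETS cores, and only that of Dusp5 holds CArG boxes. Each holds the 250 bases before the start in RefSeq's GRCm38.p6 annotation, on the plus strand, Dusp6 at chr10:99262981-99263230, Spred1 at chr2:117120821-117121070 and Dusp5 at chr19:53528895-53529144. Capitals mark the ETS core GGAA on either strand (TTCC where it lies on the other strand) in Dusp6 and Spred1, and CArG boxes, which the serum response factor binds, in Dusp5.
Dusp6: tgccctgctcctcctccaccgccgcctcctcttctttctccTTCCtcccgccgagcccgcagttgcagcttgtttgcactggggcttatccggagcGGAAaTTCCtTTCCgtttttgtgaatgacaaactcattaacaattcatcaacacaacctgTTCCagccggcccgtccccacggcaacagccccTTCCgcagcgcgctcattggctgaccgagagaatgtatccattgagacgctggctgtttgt
Spred1: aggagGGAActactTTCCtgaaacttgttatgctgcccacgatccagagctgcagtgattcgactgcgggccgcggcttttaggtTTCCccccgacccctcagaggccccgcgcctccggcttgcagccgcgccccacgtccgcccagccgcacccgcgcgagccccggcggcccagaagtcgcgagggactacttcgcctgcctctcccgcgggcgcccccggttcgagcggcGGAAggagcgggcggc
Dusp5: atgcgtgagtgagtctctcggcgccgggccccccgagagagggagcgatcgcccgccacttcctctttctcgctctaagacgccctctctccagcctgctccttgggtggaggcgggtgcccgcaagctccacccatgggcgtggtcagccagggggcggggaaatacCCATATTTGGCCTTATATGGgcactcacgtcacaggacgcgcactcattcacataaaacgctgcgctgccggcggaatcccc
Dusp6 held 6 ETS cores, 3 of them close together with 150, 145 and 140 bases between them and the start, and Spred1 held 4. Dusp5 held 3 ETS cores (not in capitals) and 2 adjoining CArG boxes, with 72 and 62 bases between them and its start. The short ETS core stands in 93.4% of 32851 mouse windows of this length, while a CArG box stands in 1.47%. No other feedback gene whose window was read held a CArG box. Windows of Dusp4, Spry4 and Etv4 were not read, so the counts cover 7 of the 10 genes. Of the rest of these 7, Spred2, which did not pass the limit of 0.05, held 7 ETS cores, more than any window shown. Spry2 held 3 and Spry1 held 1, and neither passed that limit. Etv5, which passed it, held 4 before one of its starts and 0 before the other. Whether these counts bear on the differences was not tested. No window of the 7 genes held the AP-1 site TGANTCA (6.75% of windows) or the cyclic AMP response element TGACGTCA (1.55%). These are matches of letters on both strands and do not show that a factor binds there.

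Among the Sprouty genes, Spry4 was lower in pEGFR-Hi and Spry1 and Spry2 did not pass the test. Spry4 encodes an inhibitor that acts on the path to Raf. Its level was 9.91, 10.11, 9.72, 10.40, 9.88 and 10.31 in the 6 pEGFR-Hi mice and 11.14, 11.03, 11.10, 11.03, 10.86 and 11.36 in the 6 pEGFR-Lo mice. The groups were 0.47 apart, with pEGFR-Hi replicate 4 highest in its group, as it also was for Dusp4 and Dusp6, and pEGFR-Lo replicate 6 highest in its group, as for Dusp4. The odd-numbered pEGFR-Hi mice (9.91, 9.72 and 9.88) all lay below the even-numbered ones (10.11, 10.40 and 10.31). Dusp6, Spry1 and Spred2 split in the same way, and the other members did not. What sets these mice apart was not tested. The means were 10.05 ± 0.266 in pEGFR-Hi and 11.09 ± 0.163 in pEGFR-Lo, giving a difference of -1.03 (SE 0.119, 95% confidence interval -1.29 to -0.78), or 2.05-fold lower, with an adjusted p of 3.54e-06 from limma. This stood just past the 2-fold limit: the difference was -0.97 without pEGFR-Hi replicate 3, -0.998 without pEGFR-Hi replicate 5, -0.98 without pEGFR-Lo replicate 6 and -0.96 without pEGFR-Lo replicates 3 and 6 or after a further quantile normalization, so the call was lost there. Over the alternatives that give an adjusted p it was between 8.25e-07 and 5.33e-05.

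Spry1 and Spry2 encode the Sprouty proteins best known for binding the adaptor Grb2 after receptor activation. Spry1 ran from 8.49 to 8.94 with a median of 8.70 in pEGFR-Hi and from 8.32 to 8.77 with a median of 8.61 in pEGFR-Lo, a difference of 0.09 (95% confidence interval -0.13 to 0.30, adjusted p = 0.575 from limma). Spry2 ran from 9.38 to 9.81 with a median of 9.65 in pEGFR-Hi and from 9.25 to 9.61 with a median of 9.49 in pEGFR-Lo, a difference of 0.15 (95% confidence interval -0.05 to 0.34, adjusted p = 0.254). For Spry2, 4 pEGFR-Hi mice were above every pEGFR-Lo mouse and the other 2 lay within the pEGFR-Lo range. For both genes the interval leaves out a 2-fold change in either direction.

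Of the Spred genes, Spred1 was lower in pEGFR-Hi at the limit of 0.05 alone and Spred2 did not pass. Spred1, whose protein recruits neurofibromin to the membrane to switch Ras off, was 8.58, 8.87, 8.82, 8.55, 8.58 and 8.69 in the 6 pEGFR-Hi mice and 9.65, 9.32, 9.51, 9.30, 9.03 and 9.18 in the 6 pEGFR-Lo mice. The groups did not overlap, with 0.16 between pEGFR-Hi replicate 2 and pEGFR-Lo replicate 5. The means were 8.68 ± 0.136 in pEGFR-Hi and 9.33 ± 0.223 in pEGFR-Lo, a difference of -0.65 (SE 0.105), or 1.57-fold lower, with an adjusted p of 1.13e-04 from limma, short of the 2-fold limit under every alternative (-0.71 to -0.59). Spred2, a close relative with the same mode of action, ran from 9.74 to 10.21 with a median of 9.94 in pEGFR-Hi and from 9.75 to 9.995 with a median of 9.79 in pEGFR-Lo. The pEGFR-Hi mice spread over the whole pEGFR-Lo range, with 3 of them above it, and the difference was 0.12 (95% confidence interval -0.07 to 0.31, adjusted p = 0.351). Spred2 had a second, dimmer probe set at 9.09 ± 0.221 in pEGFR-Hi and 9.28 ± 0.144 in pEGFR-Lo, a difference of -0.19 with an adjusted p of 0.188 over 21789 probe sets, so its probe sets differed in sign and neither passed.

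Of the ETS factors, Etv5 was lower in pEGFR-Hi at the limit of 0.05, and the difference of Etv4 had the other sign and did not pass. Etv5, which like Etv4 binds the ETS core, was 11.38, 11.42, 11.25, 11.37, 11.13 and 11.41 in the 6 pEGFR-Hi mice and 11.70, 11.72, 11.82, 11.75, 11.74 and 11.78 in the 6 pEGFR-Lo mice. Every pEGFR-Hi mouse was below every pEGFR-Lo mouse, and the pEGFR-Lo values had the smallest SD of any member, 0.0431. The difference was -0.42 (SE 0.0721, 95% confidence interval -0.57 to -0.27), or 1.34-fold lower in pEGFR-Hi, with an adjusted p of 2.01e-04 from limma. A second probe set of Etv5 gave 10.16 ± 0.182 in pEGFR-Hi and 10.62 ± 0.081 in pEGFR-Lo, a difference of -0.46 with an adjusted p of 6.74e-04 over 21789 probe sets, of the same sign and of similar size. Etv4, the other PEA3 factor of the list, ran from 8.37 to 9.32 with a median of 8.78 in pEGFR-Hi and from 8.02 to 8.68 with a median of 8.44 in pEGFR-Lo. Of the pEGFR-Hi mice, 4 were above every pEGFR-Lo mouse (replicate 4 by less than the rounding), and replicate 5, at 8.37, lay among the lower pEGFR-Lo values. The difference was 0.38 (SE 0.146, 95% confidence interval 0.07 to 0.69), with an adjusted p of 0.0539 from limma that ran from 0.0167 to 0.123 over the alternatives, so Etv4 lay on either side of the limit of 0.05 depending on the setting.

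**Figure D2:**
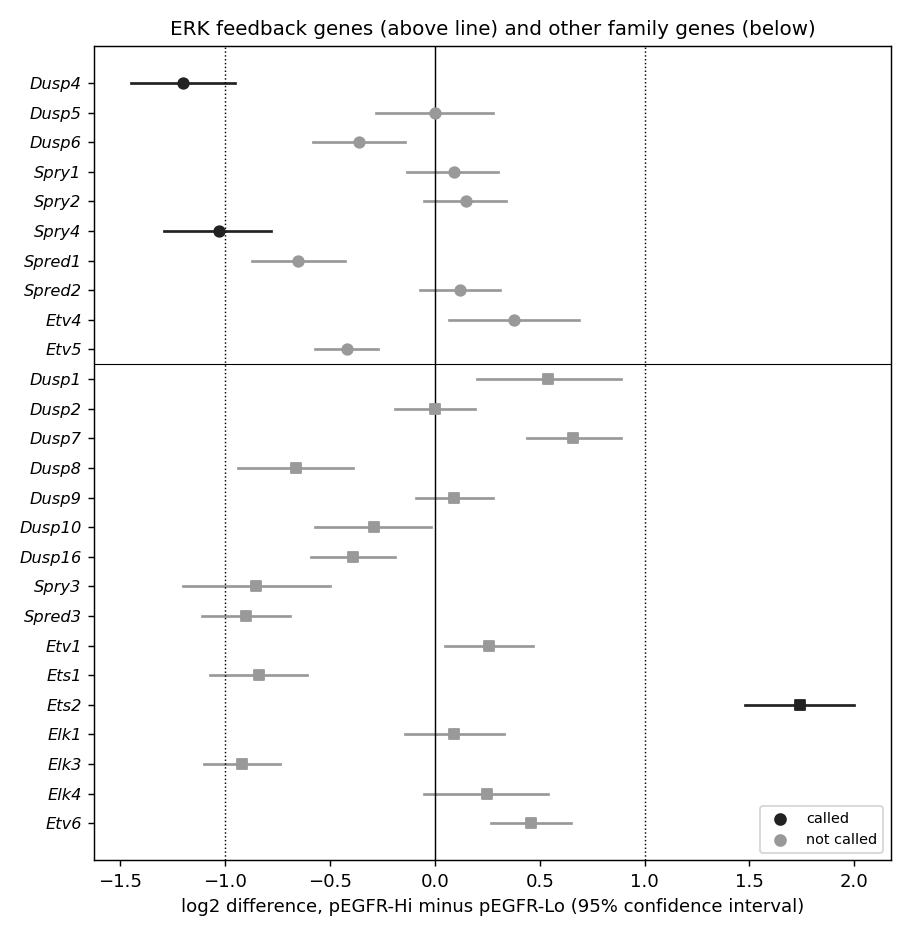
Difference, pEGFR-Hi minus pEGFR-Lo, on the log2 scale (x axis; 6 mice a group) with its 95% confidence interval for the 10 ERK feedback genes (circles, above the line) and 16 other genes of the same families (squares, below it); dotted lines mark 2-fold and black marks genes called by limma; Spry3 is below background in pEGFR-Hi. Dusp4 (-1.20) and Spry4 (-1.03) are called lower, and Ets2 (1.74) is the only gene called higher.

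The families of these genes were mixed in direction. Of 16 further phosphatase, Sprouty, Spred and ETS genes, 1 was called higher in pEGFR-Hi and 0 lower, by limma as by SAM. Of all genes, limma called 3.99% higher and 5.06% lower. At the adjusted limit of 0.05 alone 5 were higher and 6 lower, where 19.4% of all genes were higher and 16.6% lower. At an unadjusted p under 0.05, 5 were higher and 7 lower, where 23% of all genes were higher and 19.8% lower. The called gene was Ets2, an ETS factor that ERK activates by phosphorylation, at 8.94 ± 0.185 in pEGFR-Hi and 7.19 ± 0.262 in pEGFR-Lo, 3.35-fold higher with an adjusted p of 1.22e-08 from limma. All 6 pEGFR-Hi mice (8.58 to 9.11) were above all 6 pEGFR-Lo mice (6.80 to 7.48). The following were picked after their values were seen. Elk3, a ternary complex factor, differed by -0.92, Spred3 by -0.90 and Ets1 by -0.84, all past an adjusted p of 0.05 with groups that did not overlap. On the other side, Etv6 differed by 0.46, also without overlap. Dusp1 differed by 0.54 and Etv1, an ETS gene, by 0.26, both with overlapping groups (adjusted p = 0.0152 and 0.0481 from limma). Spry3 had a mean of 3.42 in pEGFR-Hi, below background, and of 4.26 in pEGFR-Lo, close to it, so no fold is given. Of the other phosphatases, Dusp7, which like Dusp6 is cytoplasmic and prefers ERK, differed by 0.66 with higher values in pEGFR-Hi, and Dusp8, which prefers JNK and p38, by -0.66.

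Of 17 measured genes that carry the signal from EGFR to ERK and RSK (24 listed), 1 was called higher and 2 lower, and at the adjusted limit of 0.05 alone 4 were higher and 4 lower, with 19.4% of all genes higher and 16.6% lower at that limit. Gab1, the docking protein that links EGFR to PI3K and Ras, was 7.93 ± 0.203 in pEGFR-Hi and 9.31 ± 0.329 in pEGFR-Lo, 2.6-fold lower (adjusted p = 9.31e-07), and Rps6ka3, encoding the ERK-activated kinase RSK2, was 2.2-fold lower (adjusted p = 2.41e-06). Rps6ka6, encoding RSK4, was 5.35 ± 0.362 in pEGFR-Hi and, at 3.37 ± 0.310, below background in pEGFR-Lo, which makes it at least 2.37-fold higher when set against the background level (adjusted p = 1.14e-07). Egfr was 7.88 ± 0.193 in pEGFR-Hi and 8.17 ± 0.237 in pEGFR-Lo, with overlapping groups (-0.30, adjusted p = 0.063). Its probes are annotated to the mouse gene, and how far they also read the human EGFRvIII transgene was not tested. Of 10 other brakes on receptor tyrosine kinases and Ras, 0 were called by SAM or by limma. At the adjusted limit of 0.05 alone 1 was higher and 4 lower, where the shares of all genes were those just given. At an unadjusted p under 0.05, 2 were higher and 5 lower, where 23% of all genes were higher and 19.8% lower. Rasal2, a Ras GTPase-activating protein picked after its value was seen, came nearest at -0.96, and passed 2-fold when pEGFR-Lo replicate 5 (-1.06) or 6 (-1.001) was left out.

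Other transcripts that ERK raises were called in both directions, 3 higher and 4 lower of 15 measured, where 3.99% of all genes were called higher and 5.06% lower. At the adjusted limit of 0.05 alone 6 were higher and 6 lower, where 19.4% of all genes were higher and 16.6% lower. The groups did not overlap in 10 of the 15, against 23.3% of all genes, and the median difference was 0.04. Plaur, the urokinase receptor, was 3.02-fold higher in pEGFR-Hi (adjusted p = 4.59e-04), Emp1, an epithelial membrane protein, was 2.68-fold higher (adjusted p = 4.11e-06), and Junb, an AP-1 subunit, was 2.2-fold higher (adjusted p = 2.45e-07). On the other side Ccnd1, which encodes cyclin D1, was 9.40 ± 0.421 in pEGFR-Hi and 11.59 ± 0.0762 in pEGFR-Lo, 4.55-fold lower (adjusted p = 1.27e-08). Epha4, an ephrin receptor, was 3.59-fold lower (adjusted p = 5.80e-07), Hbegf, a ligand of EGFR, was 2.54-fold lower (adjusted p = 4.19e-07), and Hmga2, a chromatin protein of progenitors, was 2.14-fold lower (adjusted p = 8.10e-05). Hmga2 fell short of 2-fold without pEGFR-Hi replicate 1 (-0.985) or 5 (-0.992). In Ccnd1, as in Dusp4, Dusp6 and Spry4, pEGFR-Hi replicate 4 was the highest pEGFR-Hi mouse, at 9.92. Of 15 immediate-early genes, the first wave of transcripts after ERK activation and also of the response to dissociating tissue, limma called 7 higher and 0 lower, with a median of 0.94, where 3.99% of all genes were called higher. At an unadjusted p under 0.05, 12 were higher and 0 lower, where 23% of all genes were higher. Within the same sorted cells these transcripts and the feedback genes had medians of 0.94 and -0.18. The median absolute difference over all genes was 0.178, so -0.18 is about the size of a typical gene's difference. The part of dissociation in either list was not tested.

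**Figure D3:**
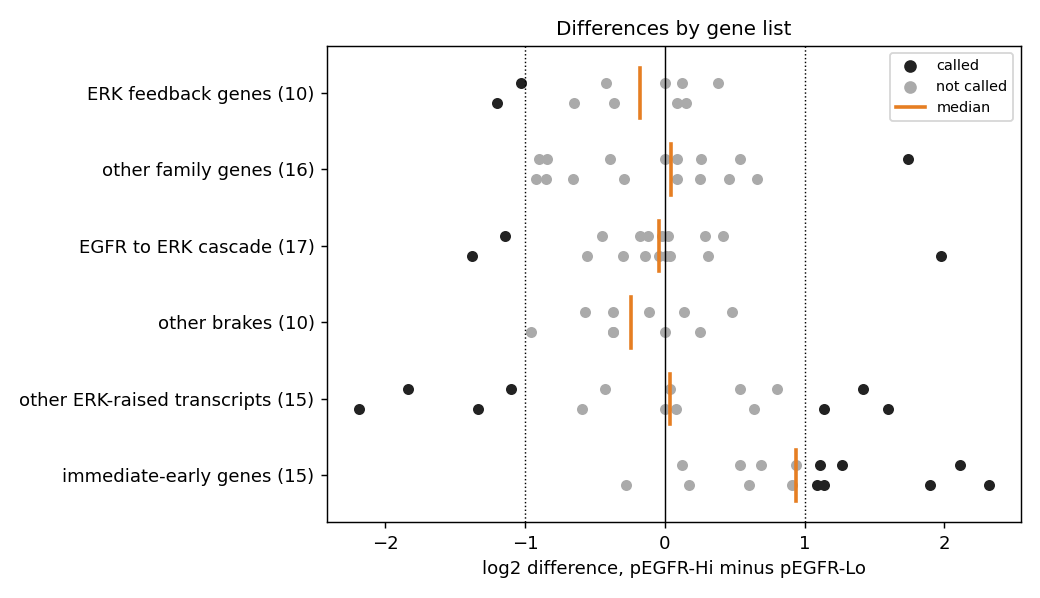
Difference on the log2 scale, pEGFR-Hi minus pEGFR-Lo (x axis; 6 mice a group), for each measured gene of 6 lists (y axis, number of genes in brackets; Dusp1 and Junb stand in 2 lists each); black points were called by limma, orange lines are medians and dotted lines mark 2-fold. The feedback genes have a median of -0.18 and no called gene to the right, and the immediate-early genes a median of 0.94 and no called gene to the left.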

How the data were processed

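Tumor cell RNA of 12 mice was hybridized to Affymetrix Mouse Gene 1.0 ST arrays. The authors deposited log2 values made with RMA in Affymetrix Expression Console (background correction, quantile normalization, probe set summary); version, summary level and genome build are not given in the sources used here. RMA brings arrays to nearly 1 distribution (array medians here 4.81 to 4.88), so a change in total RNA per cell cannot be seen. Groups and replicate numbers came from the sample titles. Of 35556 probe sets, 21789 had 1 gene symbol and were used, and the brightest by mean over 12 arrays stood for each of 19938 genes; of the members only Spred2 and Etv5 had 2. Symbols of 21698 probe sets were matched to RefSeq. Background was the level that 95% of 1027 olfactory receptor genes stayed below by their means. Groups were compared with limma 3.58.1 (lmFit, eBayes) in R 4.3.3, with Benjamini-Hochberg adjustment over all genes; data.table (1.17.8), pandas 2.3.3, Python 3.11.15 and matplotlib 3.10.9 served for tables and figures. The limits of the call are those the methods give for SAM, which was run with 100 permutations as an alternative. On simulated arrays of 19938 genes for this comparison, limma and SAM each called 100 of 100 genes changed by 1.5 and 99 of 100 changed by 2 on the log2 scale, and 0 unchanged ones. These changes were larger than that of any member (Dusp4 was widest at -1.20) and the noise was independent between genes. The simulation therefore does not show how calls near 2-fold fare.

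The members and lists were chosen with earlier results of these data known. Named by rule were all members and Egfr. The called genes of the other family genes, the cascade, the other brakes and the other ERK-raised transcripts were also named by rule. At most 4 were taken per list and direction, with the smallest adjusted p. Elk3, Spred3, Ets1, Etv6, Dusp1, Etv1, Spry3, Dusp7, Dusp8, Rasal2, Flt1 and the called cell type markers were picked after their values were seen. Some listed genes of the cascade and of the ERK-raised transcripts were not analysed here. Alternatives were, for the test, SAM, array weights, the replicate number as a block and a robust eBayes with a trend; for the values, median centring, a further quantile normalization, the mean of probe sets and only genes above background; for the threshold, an adjusted p under 0.05 alone; and for the samples, each array left out in turn or pEGFR-Lo replicates 3 and 6. The dimmer probe sets were added after seeing the data. Arrays do not give a sequencing depth, and their number limits the precision.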

Additional observations from a re-analysis of the deposited data

Results flagged for a closer look

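Each of the 10 feedback genes was looked at in each group of 6 mice for a single mouse far from the rest, and 2 of the 20 groups had one, where chance flags about 1 in 20. Dusp4 in pEGFR-Lo replicate 6 was 9.77, with the nearest mouse at 9.40, a gap of 0.777 of the group's range. Dusp5 in pEGFR-Lo replicate 1 was 5.98, with the nearest mouse at 6.42, a gap of 0.788 of the range.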

How the results depend on the processing

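The direction of 8 of the 10 members was kept under all alternatives, the exceptions being Dusp5 and Spred2, neither of which passed under any. Dusp5 was 0.0214 after median centring, 0.0641 without pEGFR-Lo replicates 3 and 6, and -0.104 to 0.0469 with single arrays left out; Spred2 was -0.0353 as the mean of its probe sets and -0.191 by the dimmer one. The count of members called lower was 2, and 1 after a further quantile normalization or without pEGFR-Lo replicates 3 and 6, 1 to 2 with single arrays left out and 5 with no fold limit; Spry4 alone was lost. With no fold limit, 11 other family genes, 8 cascade genes, 5 other brakes and 12 ERK-raised transcripts passed. Of all genes, 19.4% passed there as higher and 16.6% as lower. Other family genes called were 2 without pEGFR-Lo replicates 3 and 6 (the added gene, Spry3, lies below background in pEGFR-Hi, so its fold is not measured), and other brakes called were 0 to 1 with single arrays left out (Rasal2). Fitted with a replicate block, 2 members were called lower and 0 higher, Dusp4 at -1.20 with an adjusted p of 9.20e-06 from limma; over all genes 801 were higher and 1008 lower, against 795 and 1009 without it. Nothing in the labels says that the replicate numbers pair mice, so they were not taken to do so in the main fit. Same-numbered arrays deviated with correlations of -0.137 to 0.097, and the block changed no call of the members. Only 2 lines were compared, and for Rps6ka6, below background in pEGFR-Lo, signal limits the fold.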

Other observations

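Within each group, the gene above background whose deviations from the group mean were most like those of a member over the 12 arrays was Gpr45 for Dusp4 (Pearson r = 0.91, Spearman rho = 0.78), Aven for Dusp5 (r = 0.95, rho = 0.87) and Nsa2 for Dusp6 (r = 0.88, rho = 0.84). For the Sprouty genes it was Slc41a1 for Spry1 (r = 0.92, rho = 0.89), Gpr180 for Spry2 (r = 0.95, rho = 0.90) and Gm5124 for Spry4 (r = 0.93, rho = 0.92). For the Spred and ETS genes it was Thoc2l for Spred1 (r = 0.96, rho = 0.99), Tbc1d24 for Spred2 (r = 0.91, rho = 0.93), Slc5a6 for Etv4 (r = 0.91, rho = 0.84) and Tns2 for Etv5 (r = 0.93, rho = 0.97). Each is the highest of 13519 genes over 12 arrays that share their normalization, so the values are a description with no p. No member was the nearest gene of another; between members, the highest were Etv4 with Etv5 (r = 0.74) and Spred2 with Etv5 (r = 0.73), then Dusp4 with Dusp6 (r = 0.69), and Spry2 and Etv4 had the lowest (r = -0.63).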
